A study of Mus musculus with 9 samples.

Results

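The 9 genes described here (Scd1, Scd3, Elovl3, Far2, Awat2, Dgat2l6, Soat1, Mc5r and Krt79) belong to the sebaceous gland, the oil gland that opens into the hair follicle. They were taken by gene name from a table of 29205 genes measured by RNA sequencing (RNA-seq) in the back skin of male BALB/c mice, an inbred white strain, aged 6 to 8 weeks. All 9 were found once in the table. The samples form 3 groups, and 3 libraries of each were sequenced. The control group was shaved and depilated only. The IMQ group was also shaved and depilated and then received imiquimod, a Toll-like receptor agonist that is used to raise psoriasis-like inflammation, as 62.5 mg of a 5% cream on the back each day for 5 consecutive days. The LYS group received the same cream together with Longkui Yinxiao soup (LYS), a herbal decoction given by mouth, and the study describes its sequenced LYS mice as the high-dose group. Skin was taken on day 13 in all groups. Each library is whole skin, so a lower value can come from fewer sebocytes or from less RNA per sebocyte, and these cannot be told apart here. The labels do not state that each library is a separate mouse, so the p-values measure only the spread between these samples.

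Sebocytes fill with lipid as they mature and then burst, and their content, called sebum, coats hair and skin. Fatty acids are first made and then changed by desaturases (Scd1 and Scd3, which place a double bond in saturated fatty acids) and by elongases (Elovl3, which lengthens fatty acids to very long chains). Far2 reduces long fatty acids to fatty alcohols, Awat2 joins fatty alcohols with fatty acids to wax esters, and Dgat2l6 is an acyltransferase of the same family as Awat2. Soat1 esterifies cholesterol. Mc5r is the melanocortin receptor of the sebaceous gland, and Krt79 is a keratin of the cells that line the duct between gland and follicle, so it is not itself a lipid gene. Scd1 and Soat1 are also used outside the gland, Scd1 strongly in adipocytes.

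In GRCm38 with the GENCODE M21 annotation, Scd3, Scd1 and Elovl3 share chromosome 19, with Scd3 at chr19:44203269-44244016 on the plus strand, Scd1 at chr19:44394455-44407879 on the minus strand and Elovl3 at chr19:46131897-46135694 on the plus strand. Scd2 and Scd4 stand between Scd3 and Scd1. Awat2 (chrX:100402221-100442717, minus strand) and Dgat2l6 (chrX:100524838-100546144, plus strand) are neighbours on the X chromosome, 82120 bases apart with 1 protein-coding gene, Igbp1, between them. Soat1 is at chr1:156424525-156474331, Krt79 is at chr15:101929332-101940324 and Far2 at chr6:148047259-148182758. All 9 are protein-coding, and the values are sums over their exons. Genes on the opposite strand overlap Scd3 (AC125101.1), Elovl3 (Pitx3), Awat2 (Otud6a), Soat1 (Gm37648) and Far2 (Far2os1, Far2os2 and Ergic2), and reads from the overlaps cannot be assigned to a strand, because strand use in counting is not given in the sources used here.

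Scd1 and Scd3 are close copies. Of the 50-base words in the exons of Scd1, 4.56% occur in another gene, and of those of Scd3 6.54% do, against at most 0.506% for any of the other 7. Their longest identical coding run is 185 bases, which lie at coding bases 463 to 647 of Scd1 (within chr19:44400363-44401865, introns included) and 475 to 659 of Scd3 (within chr19:44235804-44238387). It is shown because reads inside it cannot tell these genes apart, so that Scd3, the lower of the pair, is uncertain to that extent.
Scd1 and Scd3, shared coding run: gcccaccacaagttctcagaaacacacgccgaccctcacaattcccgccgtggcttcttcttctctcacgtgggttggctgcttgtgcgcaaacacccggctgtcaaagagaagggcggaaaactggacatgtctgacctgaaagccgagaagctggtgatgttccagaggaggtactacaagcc

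The 250 bases before the start of transcription (RefSeq, GRCm38.p6) were found for 6 of the 9 genes, Scd3, Awat2, Soat1, Krt79, Far2 and Dgat2l6. The windows of the neighbours Awat2 and Dgat2l6 and of Krt79 are shown, since the first 2 belong to neighbouring genes of 1 enzyme family and Krt79 reached the highest share of its control level in a LYS library. They cover chrX:100442718-100442967 on the minus strand, chrX:100524588-100524837 on the plus strand and chr15:101940325-101940574 on the minus strand, and capitals mark a CCAAT box. Awat2 has a further start with a window of its own, which is not printed.
Awat2: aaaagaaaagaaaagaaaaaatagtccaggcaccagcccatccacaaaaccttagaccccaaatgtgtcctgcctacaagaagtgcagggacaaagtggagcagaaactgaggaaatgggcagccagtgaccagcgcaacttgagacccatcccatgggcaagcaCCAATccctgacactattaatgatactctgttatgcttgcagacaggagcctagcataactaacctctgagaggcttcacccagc
Dgat2l6: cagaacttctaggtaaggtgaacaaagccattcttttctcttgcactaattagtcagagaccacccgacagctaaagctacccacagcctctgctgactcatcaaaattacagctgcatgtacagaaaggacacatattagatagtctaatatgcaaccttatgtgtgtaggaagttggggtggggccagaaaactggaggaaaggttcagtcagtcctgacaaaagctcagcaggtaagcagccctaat
Krt79: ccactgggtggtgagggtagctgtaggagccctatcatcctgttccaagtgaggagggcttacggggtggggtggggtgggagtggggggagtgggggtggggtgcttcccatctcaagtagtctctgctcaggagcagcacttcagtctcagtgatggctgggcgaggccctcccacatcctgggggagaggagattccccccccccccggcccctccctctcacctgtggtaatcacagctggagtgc
On either strand, CCAAT was found in 2 of the 6 genes (Awat2, where it begins 85 bases before the start, and Soat1) and in 33.8% of all 32851 RefSeq windows of this length. The sterol element SRE-1 (TCACNCCAC), the nuclear receptor half-site AGGTCA and the TATA box TATAAA were found in none of the 6, and in 1.05%, 14% and 12.4% of all windows.

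The libraries held 14658645 to 19609878 counts. Values per library are given as CPM (counts scaled to the same library total) after scaling by the trimmed mean of M-values (TMM), with factors of 1.08 to 1.18 in control, 0.825 to 0.937 in IMQ and 0.99 to 1.06 in LYS libraries. Libraries of one group differed from each other by more than the noise of counting allows (a chi-square of 16.9 to 100 for each degree of freedom over 9 pairs), so none was a duplicate. Other tissue in the samples moved strongly with the groups. The summed CPM of 15 hair shaft and inner root sheath genes ran from 2709 to 5783 in control, from 30.4 to 36.6 in IMQ and from 11.3 to 31.9 in LYS libraries, and 5 to 10 of the 15 stood at 0 in each IMQ or LYS library. That of 12 adipocyte genes ran from 9739 to 22630 in control, from 1044 to 3729 in IMQ and from 2804 to 8180 in LYS libraries, and none was at 0. Skeletal muscle genes (10 genes, none at 0) summed to 10714 to 11854, 1848 to 4647 and 4588 to 9047 CPM. Epidermal keratinocyte genes (10) summed to 5903 to 9987, 39047 to 59428 and 16935 to 31233 CPM, and inflamed keratinocyte genes (10) to 72.5 to 241, 36576 to 49680 and 12992 to 31120 CPM. Hair markers all fell in both cream groups against control (15 of 15 in both), inflamed keratinocyte markers rose (10 of 10 and 9 of 9 tested), muscle markers fell (8 and 7 of 10) and epidermal markers split (3 lower and 7 higher of 10 in both). Over all genes 26.9% were called lower and 24.1% higher in IMQ against control, and 12.9% and 15.1% in LYS against control. None of these was called between LYS and IMQ in the main edgeR fit, which held only the 6 libraries compared. The part of this tissue make-up in the sebaceous values was not tested.

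In control skin the genes differed widely in level. Levels between genes are compared as FPKM, which divides by gene length and library total. Scd1 led with 2181 ± 1095 FPKM (mean ± SD, n = 3), followed by Krt79 with 87.2 ± 14.7 FPKM. Elovl3 (44.6 ± 8.04 FPKM), Scd3 (32.8 ± 5.55 FPKM) and Far2 (27.0 ± 4.6 FPKM) came next, and each overlapped its neighbour in this order. Awat2 stood alone at 10.2 ± 2.65 FPKM. Soat1 (5.88 ± 0.614 FPKM), Dgat2l6 (5.57 ± 1.34 FPKM) and Mc5r (4.75 ± 0.322 FPKM) were lowest, again with overlapping neighbours. In the IMQ group Scd1 (129 ± 113 FPKM) and Krt79 (14.5 ± 5.95 FPKM) still led without overlap, Soat1 was the third at 2.59 ± 0.330 FPKM with an overlap with Elovl3 (2.35 ± 1.58 FPKM), and Dgat2l6 was last at 0.0840 ± 0.0701 FPKM, below every library of Awat2 (0.562 ± 0.155 FPKM). In the LYS group only Scd1 (317 ± 94.5 FPKM) was separate from the next gene. All the others overlapped their neighbours, from Krt79 (45.5 ± 59.2 FPKM) down to Dgat2l6 (0.613 ± 0.941 FPKM).

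The first comparison set the IMQ group against the control group. The study describes no vehicle cream for control mice, so imiquimod and its cream base cannot be told apart here. All 9 were lower in the IMQ group than in the control group. They passed edgeR's quasi-likelihood test at an adjusted p under 0.05 with a log2 fold change beyond 0.58, where 26.9% of 15976 genes tested were called lower. For all 9 the highest IMQ library lay below the lowest control library, as it did for 38.9% of all genes. On average the IMQ group kept 1.92% (Dgat2l6) to 57.8% (Soat1) of the control level, and 6 of the 9 kept under 10%, which 1.65% of 14770 genes with a mean of at least 1 CPM did.

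Of the desaturases, Scd1 measured 9196, 14990 and 4638 CPM in the control libraries 1 to 3 and 1354, 418 and 344 CPM in the IMQ libraries. Both groups were spread widely (9608 ± 5188 and 705 ± 563 CPM), and they did not overlap. Its log2 fold change was -3.70 with a standard error (SE) of 0.666 (edgeR adjusted p = 0.00186). Scd3 gave 98.8, 92.5 and 117 CPM in control and 2.61, 1.78 and 3.73 CPM in IMQ libraries. This was a tight pair of groups with the smallest adjusted p of the 9 genes (log2 fold change -5.19, SE 0.247, edgeR adjusted p = 8.26e-06). The elongase Elovl3 fell from 67.4, 76.1 and 90.2 CPM to 5.93, 1.42 and 8.74 CPM (log2 fold change -3.80, SE 0.481, edgeR adjusted p = 0.000339).

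The genes of wax ester formation fell too. Far2, the source of fatty alcohols, gave 165, 159 and 200.1 CPM in control and 11.4, 2.70 and 15.3 CPM in IMQ libraries, a log2 fold change of -4.09 (SE 0.501, edgeR adjusted p = 0.000289). Awat2, the wax synthase, gave 23.4, 14.4 and 19.6 CPM against 1.25, 1.07 and 1.86 CPM (log2 fold change -3.72, SE 0.288, edgeR adjusted p = 3.89e-05). Dgat2l6 gave 29.1, 18.7 and 22.2 CPM against 0.771, 0.0712 and 0.502 CPM, the last 3 resting on 13, 1 and 7 counts. Its log2 fold change of -5.57 (SE 0.448, edgeR adjusted p = 4.29e-05) was the largest of the 9 in size.

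The remaining 3 genes fell with smaller fold changes. Mc5r, the receptor (on chromosome 18), was nearly even over the control libraries at 15.9, 16.4 and 17.0 CPM, and gave 4.03, 1.35 and 2.79 CPM in the IMQ group (log2 fold change -2.51, SE 0.329, edgeR adjusted p = 0.000392). The duct keratin Krt79 went from 349, 331 and 418 CPM to 103, 49.0 and 84.7 CPM (log2 fold change -2.15, SE 0.266, edgeR adjusted p = 0.0003). Soat1 changed least, from 47.8, 50.2 and 54.8 CPM to 27.9, 26.4 and 34.1 CPM (log2 fold change -0.73, SE 0.133, edgeR adjusted p = 0.00198), and it was the 1 gene not called when a log2 fold change beyond 1 was asked for. Without TMM scaling the median log2 fold change of all genes shifted from -0.06 to -0.51, and that of Soat1 from -0.73 to -1.18, so that its distance from the median changed little. Without it 42.9% of all genes were called lower and 15.0% higher, against 26.9% and 24.1% with it. Within the IMQ group, library 2 was the lowest of the 3 for 8 of the 9 genes (all but Scd1), a rank that it held for 28.2% of all genes.

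**Figure D1:**
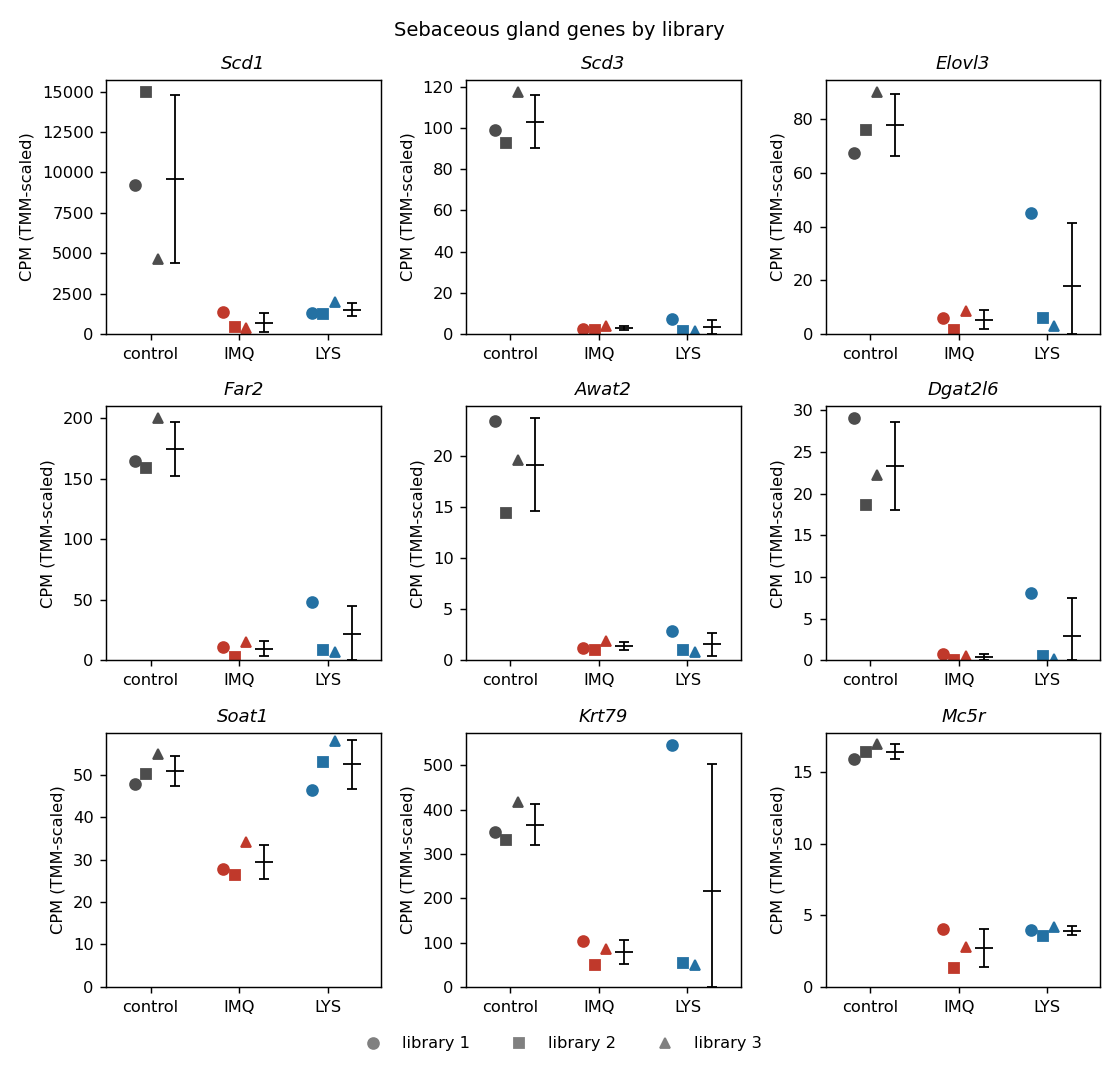
CPM after TMM scaling of the 9 genes in the 9 libraries, each panel with its own linear axis from 0, with points for single libraries (circle, square and triangle for libraries 1, 2 and 3) and bars for the mean ± SD of 3 libraries, the lower arm ended at 0. All 3 IMQ libraries lie below all 3 control libraries in every panel, and LYS library 1 stands above LYS libraries 2 and 3 in the panels of Krt79 (546 CPM against 53.7 and 48.5), Elovl3, Far2, Scd3, Awat2 and Dgat2l6.

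The second comparison asked which of these values differed with LYS. In the main edgeR fit (only the 6 libraries compared, with the filter on low counts) no gene was called between the LYS and IMQ groups. This held for the 8 of the 9 that were tested and for all 15460 genes tested (0% called lower and 0% higher, smallest edgeR adjusted p 0.0591). Dgat2l6 had too few counts for the filter. Before adjustment 5435 genes (35.2%) had a p under 0.05, and Soat1 was the 1 of the 8 among them. The LYS group lay above the IMQ group without overlap for 1 of the 8, again Soat1, against 19.2% of all genes. A p that misses the threshold does not show that the groups are alike. The absence of calls also belongs to this fit. DESeq2 called 3392 genes, and edgeR called 2419 without the filter and 3040 with all 9 libraries in 1 fit. At the same thresholds the study, which names no tool, reported genes changed in both directions. Further on, calls by edgeR for LYS against IMQ are from the main fit unless another is named.

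Soat1, the cholesterol esterifying enzyme, measured 46.3, 53.1 and 57.9 CPM in the LYS libraries against 27.9, 26.4 and 34.1 CPM in the IMQ libraries. The log2 fold change was 0.83 (SE 0.146, edgeR adjusted p = 0.0591). It was called with DESeq2 (adjusted p = 0.000313, with 12.8% of all genes called higher) and with all 9 libraries in 1 edgeR fit (adjusted p = 0.0206, 9.93% called higher). It was also called without the filter on low counts (edgeR adjusted p = 0.0166, 5.30% called higher), without IMQ library 1 (edgeR adjusted p = 0.0463, 6.80% called higher) and without LYS library 1 (edgeR adjusted p = 0.00989, 14.9% called higher). The log2 fold change stayed between 0.76 and 1.09 over these and the other settings tried.

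Scd1 gave 1298, 1235 and 1963 CPM in the LYS libraries, of which the first 2 were below IMQ library 1 (1354 CPM) and well above IMQ libraries 2 and 3 (418 and 344 CPM). Its log2 fold change was 1.09 (SE 0.539, edgeR adjusted p = 0.191), and without IMQ library 1 it was 1.97 (edgeR adjusted p = 0.0406). Mc5r gave 4, 3.57 and 4.21 CPM, a narrow range whose lower end overlapped IMQ library 1, with a log2 fold change of 0.52 (SE 0.397, edgeR adjusted p = 0.374).

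For the other 6 genes LYS library 1 stood apart from LYS libraries 2 and 3. Krt79 gave 546 CPM in LYS library 1 and 53.7 and 48.5 CPM in the others, so that the first was above all control libraries and the others within the IMQ range or just below it. Elovl3 gave 45.0, 6.10 and 3.03 CPM, Far2 48.2, 8.98 and 7.18 CPM, and Dgat2l6 8.13, 0.518 and 0.119 CPM (118, 9 and 2 counts). Scd3 gave 7.44, 1.38 and 1.48 CPM, and Awat2 2.89, 0.978 and 0.831 CPM. LYS library 1 exceeded the higher of the other two 15.7 times for Dgat2l6, 10.2 times for Krt79, 7.38 times for Elovl3, 5.37 times for Far2, 5.02 times for Scd3 and 2.96 times for Awat2. Over 5 times was reached by 5 of the 9 genes and by 40 of 14770 genes (0.271%), over 2 times by 6 of the 9 and by 1.83% of genes. This library also had the lowest total count of the 9 (14658645), the highest epidermal and inflamed keratinocyte sums of the LYS libraries (31233 and 31120 CPM) and the lowest adipocyte sum (2804 CPM), and their part in these values was not tested. The log2 fold changes over IMQ with all libraries were 1.75 for Elovl3 (edgeR adjusted p = 0.269), 1.46 for Krt79 (0.296), 1.13 for Far2 (0.374), 0.34 for Scd3 (0.753) and 0.16 for Awat2 (0.852). Without LYS library 1 all 5 turned negative, to -0.24, -0.63, -0.28, -0.92 and -0.62 (edgeR adjusted p from 0.135 to 0.817), while Soat1 (0.91), Scd1 (1.18) and Mc5r (0.50) stayed positive. The 5 were grouped because that library was their highest in the LYS group, so leaving it out had to lower them.

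**Figure D2:**
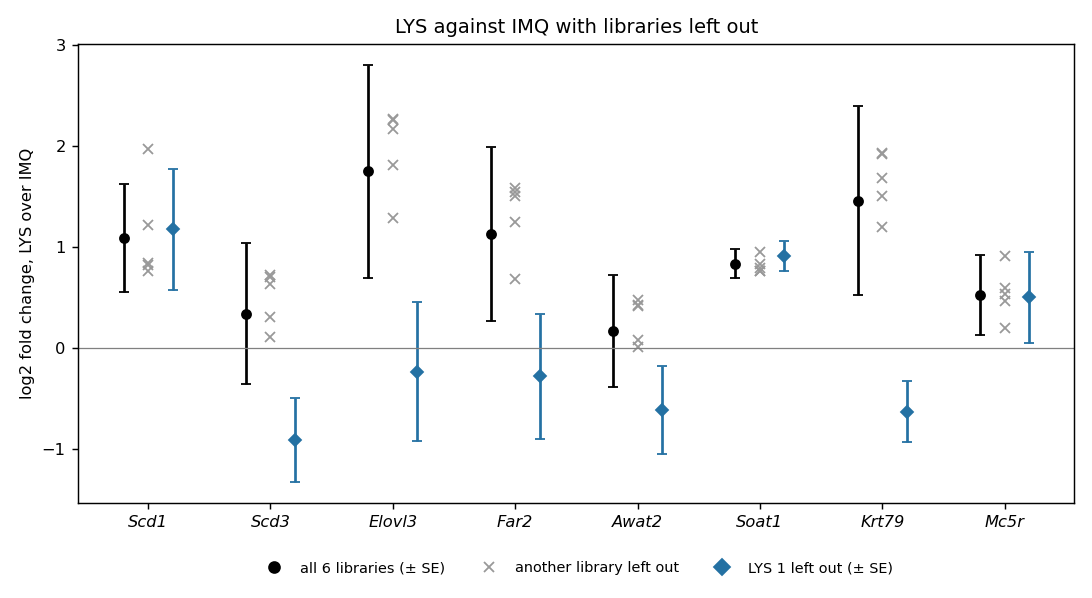
Log2 fold change of LYS over IMQ from edgeR for the 8 genes tested, with all 6 libraries (black circles, ± SE), with LYS library 1 left out (blue diamonds, ± SE) and with each of the other 5 libraries left out in turn (grey crosses). The blue diamonds lie below 0 for Scd3, Elovl3, Far2, Awat2 and Krt79 and above 0 for Scd1 (1.18), Soat1 (0.91) and Mc5r (0.50).

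The third comparison set the LYS group against the control group, with the same control libraries as in the first. Of the 9 genes 5 were called lower (12.9% of 16003 genes tested were), and for 7 of the 9 the groups did not overlap, the LYS group being lower (25.5% of all genes). Scd3 (log2 fold change -4.91, SE 0.633, edgeR adjusted p = 0.00195), Awat2 (-3.61, SE 0.480, edgeR adjusted p = 0.00217), Far2 (-2.99, SE 0.715, edgeR adjusted p = 0.0177), Scd1 (-2.67, SE 0.453, edgeR adjusted p = 0.00508) and Mc5r (-2.06, SE 0.166, edgeR adjusted p = 0.000383) passed the test. Far2 lost its call without control library 1 (edgeR adjusted p = 0.0514) and without LYS library 2 (edgeR adjusted p = 0.0561). Dgat2l6 (-2.99, SE 1.04, edgeR adjusted p = 0.0618) and Elovl3 (-2.07, SE 0.871, edgeR adjusted p = 0.106) did not pass, though neither group overlapped the other. Dgat2l6 was called without TMM scaling (edgeR adjusted p = 0.0488), without the filter on low counts (edgeR adjusted p = 0.0210) and with all 9 libraries in 1 fit (edgeR adjusted p = 0.0409), and Elovl3 without the filter (edgeR adjusted p = 0.0469). Krt79 (-0.71, SE 0.877, edgeR adjusted p = 0.567) did not pass and overlapped through LYS library 1. Without that library 8 genes were called lower (13.4% of all genes), with log2 fold changes of -6.16 for Dgat2l6, -4.09 for Elovl3 and -2.84 for Krt79. It was the highest LYS library of these genes, so leaving it out had to lower them.

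Soat1 was the exception. Its LYS values of 46.3 to 57.9 CPM overlapped the control values of 47.8 to 54.8 CPM, and the log2 fold change was 0.05 (SE 0.123, edgeR adjusted p = 0.788). As a share of the control mean, Soat1 stood at 57.8% with IMQ alone and 102.9% with IMQ and LYS. Scd1 stood at 7.34% and 15.6% and Mc5r at 16.6% and 23.9%. For the 6 genes led by LYS library 1, that library alone reached 149% for Krt79, 57.7% for Elovl3, 34.9% for Dgat2l6, 27.6% for Far2, 15.1% for Awat2 and 7.23% for Scd3. The mean of LYS libraries 2 and 3 was 14.0%, 5.86%, 1.37%, 4.63%, 4.73% and 1.39% of control for these genes in the same order. The IMQ group stood at 21.6%, 6.89%, 1.92%, 5.62%, 7.27% and 2.63%. These genes were grouped because LYS library 1 was their highest, so leaving it out lowers their mean by construction. LYS library 2 alone stood above the IMQ mean for Elovl3 (7.83%) and Dgat2l6 (2.22%), but not for the others.

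**Figure D3:**
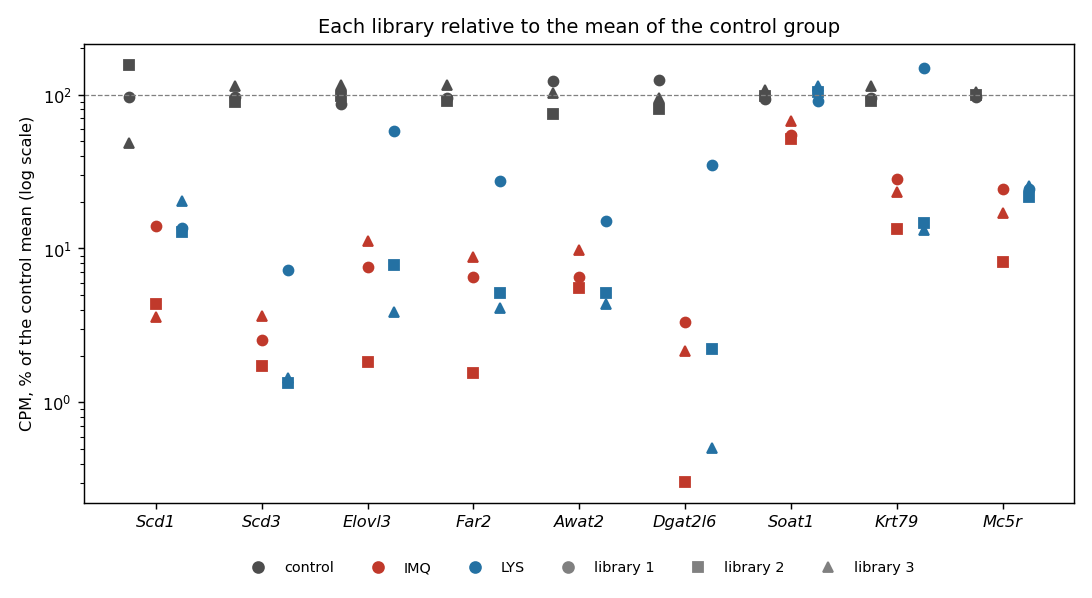
Each library as a percentage of the control mean CPM of the same gene, on a log axis, with colour for the group and shape for the library number, and the dashed line at 100%. Only Soat1 has all 3 LYS libraries near the line, and LYS library 1 alone reaches 149% for Krt79.

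Profiles over the 9 libraries were compared by the root-mean-square difference of log2(CPM + 1), centred on the mean of each gene. Among the members, Elovl3 and Far2 were nearest to each other (0.347), then Far2 and Dgat2l6 (0.448) and Elovl3 and Dgat2l6 (0.468). Scd1 and Scd3 were far apart (1.32) although both are desaturases, and Scd3 and Soat1 were the farthest pair (2.20). These distances share the library scaling and carry no test. Over all other genes with a mean of at least 1 CPM, the nearest profiles to Far2 were those of Fa2h (0.296), which hydroxylates fatty acids, Ces4a (0.324) and the wax synthase Awat1 (0.375). Fa2h (0.332) was also nearest to Elovl3, and Awat1 (0.268) to Dgat2l6, followed by Sec14l4 (0.283). Nearest to Krt79 were AAdacl4fm3 (0.438), Tlcd4 (0.542) and Aadacl4fm2 (0.573), and to Scd3 Aadacl4 (0.530), Shh (0.582) and Foxe1 (0.585). Awat2 was nearest to Mrgprb11-ps (0.321), Cyp3a57 (0.327) and Lyg2 (0.339). Mrgprb11-ps and Lyg2 stood at 0 CPM in all IMQ and LYS libraries, and Foxe1 in all LYS libraries. These genes lack the higher LYS library 1 of Awat2 and Scd3, so their nearness rests on the fall from control to near 0. Mc5r was nearest to Prlr (0.183), the prolactin receptor, Wnt5b (0.183) and Abhd3 (0.219), and Soat1 to Cox4i2 (0.120), Spred1 (0.121) and Rara (0.139), a retinoic acid receptor.

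Scd1 shared most of its order over the libraries with the adipocyte markers. Its nearest profiles were those of Mrap (0.270), a partner protein of melanocortin receptors, Tshr (0.271) and Klb (0.281), the beta-Klotho co-receptor. In the control group Scd1 was ordered library 2 over 1 over 3, as were 12 of 12 adipocyte markers and 24.2% of all genes. In the IMQ group it was ordered 1 over 2 over 3, as were 11 of 12 adipocyte markers and 22.5% of genes, and in the LYS group library 3 was highest for Scd1 and for 12 of 12 markers (37% of genes). The lowest LYS library was library 2 for Scd1 and library 1 for 12 of 12 markers, so that the order within the LYS group was not the same. All 12 adipocyte markers fell with IMQ (median log2 fold change -2.96, Scd1 -3.70, with 26.9% of all genes lower), with Adig (-2.35, edgeR adjusted p = 0.000139), Cfd (-2.92, edgeR adjusted p = 0.000378) and Fabp4 (-3.43, edgeR adjusted p = 0.000569) the clearest. Between LYS and IMQ 0 of the 12 were called by edgeR (median log2 fold change 1.38, 0% of all genes called) and 5 were called higher by DESeq2 (12.8% of all genes). Against control 11 of the 12 were lower in the LYS group (median log2 fold change -1.58, with 12.9% of all genes lower). The part of adipocyte RNA in the Scd1 value was not tested.

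**Figure D4:**
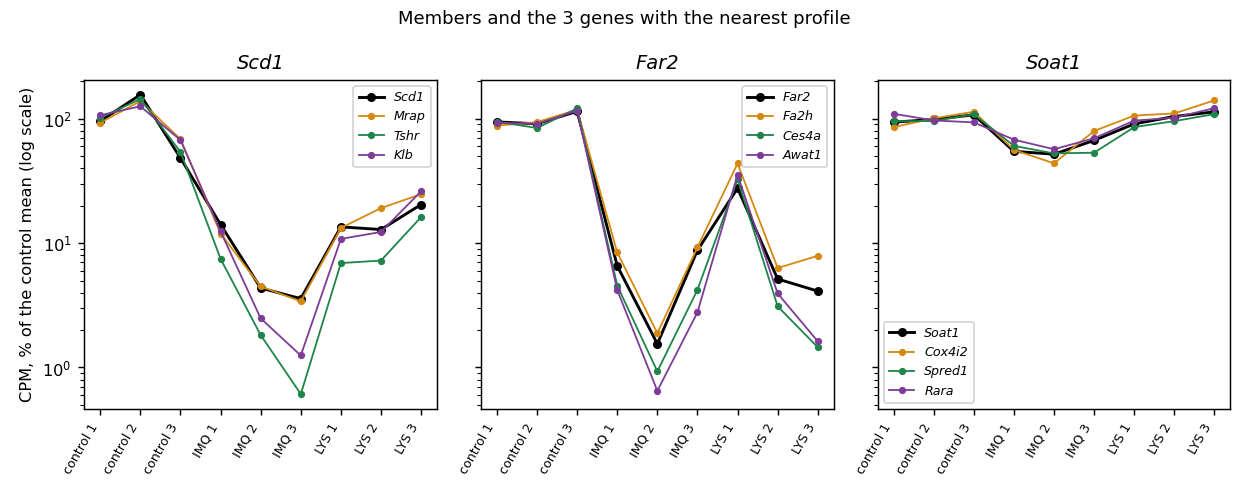
CPM as a percentage of the control mean, on a log axis, over the 9 libraries for Scd1, Far2 and Soat1 (black) and for the 3 genes with the nearest profile to each (coloured). Scd1 and its neighbours peak in control library 2 and, within the LYS group, in library 3, whereas Far2 and its neighbours peak within the LYS group in library 1 (27.6% for Far2).

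The paralogues of the 9 genes moved in both directions. Of 19, 16 were tested between IMQ and control, and 9 fell and 5 rose (median log2 fold change -0.86, against -0.06 over all genes, of which 26.9% fell and 24.1% rose). Awat1, the other wax synthase, fell like the sebaceous genes, from 40.7, 39.9 and 50.9 CPM to 1.84, 0.285 and 1.22 CPM (log2 fold change -5.19, edgeR adjusted p = 4.11e-05), and gave 15.5, 1.73 and 0.712 CPM in the LYS libraries. Far1, the close relative of Far2, fell as well (-0.96, edgeR adjusted p = 0.000499). The elongase Elovl6, which acts on palmitic acid, fell (-1.33, edgeR adjusted p = 0.000428), while Elovl1 (2.14, edgeR adjusted p = 5.95e-05), Elovl4 (1.37, edgeR adjusted p = 0.000975) and Elovl7 (2.18, edgeR adjusted p = 7.70e-05) rose. Elovl1 and Elovl4 make the very long chains of epidermal ceramides. The desaturase Scd2 rose (0.91, edgeR adjusted p = 0.00484), against the fall of Scd1 and Scd3, from 479, 691 and 544 CPM to 869, 1189 and 1019 CPM. Dgat1, which makes triglycerides, fell (-0.81, edgeR adjusted p = 0.00443), and Dgat2 did not pass (0.14, edgeR adjusted p = 0.659). Of the other melanocortin receptors, Mc2r, the receptor of the hormone ACTH, fell (-3.18, edgeR adjusted p = 0.000486). Mc1r, the pigment cell receptor, fell from 5.23, 5.06 and 8.96 CPM to 0.0593 CPM in IMQ library 1 and 0 in the others (edgeR adjusted p = 5.31e-05), and Mc3r fell from 0.83, 0.615 and 0.594 CPM to 0 in all 3 (edgeR adjusted p = 0.00185), levels at which no fold change is given. Soat2 rose from at most 0.293 CPM in control to 1.6, 4.34 and 4.51 CPM (4.29, edgeR adjusted p = 0.000633). Between LYS and IMQ 0 of 13 tested paralogues were called by edgeR, with 6 called by DESeq2 (5 lower and 1 higher, against 9.18% lower and 12.8% higher of all genes). Against control 8 of 16 were lower and 3 higher in the LYS group, where 12.9% of all genes were lower and 15.1% higher.

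Of 22 fatty acid synthesis genes, 12 fell and 3 rose with IMQ (median log2 fold change -0.84, beside 26.9% and 24.1% of all genes). Fads2 (-2.67, edgeR adjusted p = 2.15e-05), Fads1 (-1.67, edgeR adjusted p = 0.000228) and Fads3 (-2.29, edgeR adjusted p = 0.000273), the front-end desaturase family, had the smallest adjusted p among those that fell. Fads2 went from 53.1, 51.1 and 66.8 CPM to 8.66, 9.89 and 7.16 CPM. Scap, the escort of the SREBP factors (1.66, edgeR adjusted p = 5.92e-05), Me1, the malic enzyme (1.12, edgeR adjusted p = 0.000534), and Nr1h2, a liver X receptor (0.63, edgeR adjusted p = 0.00265), rose. In the LYS group 8 of 22 were lower and 1 was higher than in control (12.9% and 15.1% of all genes). Between LYS and IMQ 0 were called by edgeR and 6 by DESeq2 (3 lower and 3 higher, beside 9.18% and 12.8% of all genes). The part of adipocyte RNA in these values was not tested.

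Of 18 glycerolipid and lipid droplet genes tested, 10 fell and 3 rose with IMQ (median log2 fold change -1.02, beside 26.9% and 24.1% of all genes). Pnpla5 gave 26.5, 25.7 and 39.0 CPM in control, 2.13, 1.28 and 4.01 CPM in IMQ and 11, 1.21 and 0.712 CPM in LYS libraries, with LYS library 1 highest as in Far2 (IMQ over control -3.56, edgeR adjusted p = 0.000138). The triglyceride lipase Pnpla2 (-2.62, edgeR adjusted p = 0.000548) and Pnpla3 (-1.93, edgeR adjusted p = 0.000552) fell, and Lpin2 (2.68, edgeR adjusted p = 2.15e-05), Hilpda (2.98, edgeR adjusted p = 2.31e-05) and Abhd5, a lipase co-activator (1.05, edgeR adjusted p = 0.000823), rose. Within each group the libraries of Pnpla2 and Pnpla3 were ordered as those of most adipocyte markers were, and those of Pnpla5 were not. The part of adipocyte RNA in this list was not tested. Against control 10 of 18 were lower and 2 higher in the LYS group (12.9% and 15.1% of all genes). Between LYS and IMQ edgeR called 0 and DESeq2 called 2 (1 lower and 1 higher, beside 9.18% and 12.8% of all genes).

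Regulators of sebocytes and markers of their progenitors and ducts were mixed, with 8 of 16 tested lower and 6 higher with IMQ (median log2 fold change -0.82, beside 26.9% and 24.1% of all genes). The stem cell marker Lgr6 (-1.98, edgeR adjusted p = 0.000246) and Mrap (-3.83, edgeR adjusted p = 0.000301) fell, as did the steroid enzyme Hsd3b6 (-3.72, edgeR adjusted p = 0.00139). Fabp5 (3.96, edgeR adjusted p = 1.08e-05), Ppard (2.57, edgeR adjusted p = 1.45e-05) and Prdm1, also called Blimp1 (3.33, edgeR adjusted p = 3.82e-05), rose, and all 3 are also made by epidermal keratinocytes. Pparg, the nuclear receptor that drives lipid formation in sebocytes and adipocytes, gave 52.2, 80.1 and 34.1 CPM in control, 11.4, 4.91 and 3.94 CPM in IMQ and 14.9, 36.0 and 44.7 CPM in LYS libraries, in which library 1 was the lowest. Within each group the libraries of Mrap and Pparg were ordered as those of most adipocyte markers were. The part of adipocyte RNA in this list was not tested. Between LYS and IMQ edgeR called 0 of 15, with the smallest adjusted p for Prdm1 (-1.17, edgeR adjusted p = 0.0591), Gata6 (1.78, edgeR adjusted p = 0.0591) and Pparg (2.23, edgeR adjusted p = 0.0603), and DESeq2 called 7 (2 lower and 5 higher, beside 9.18% and 12.8% of all genes). In the LYS group 5 of 16 were lower and 5 higher than in control (12.9% and 15.1% of all genes).

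Ratios between paired genes were taken as the difference of log2(FPKM + 1) within a library and tested with a 2-sided exact permutation test, which cannot give a p below 0.1 with 3 libraries against 3. None of 9 tests passed (Benjamini-Hochberg adjusted p of 0.3 to 0.9). In IMQ libraries Scd3 (0.656 FPKM), Awat2 (0.562 FPKM) and Dgat2l6 (0.0840 FPKM) averaged under the added 1, which damps their fall in these ratios. The edgeR log2 fold changes of IMQ against control were -5.19 for Scd3 and -3.70 for Scd1, so a small difference of ratios does not show an equal fall. The ratio of Scd3 to Scd1 differed by -0.08 between IMQ and control (exact p = 0.9), by -1.42 between LYS and IMQ (exact p = 0.2) and by -1.50 between LYS and control (exact p = 0.2). That of the fatty alcohol maker Far2 to the wax synthase Awat2 differed by -0.93 (exact p = 0.1), 0.54 (exact p = 0.6) and -0.40 (exact p = 0.4), and that of Awat2 to Dgat2l6 by -0.24 (exact p = 0.2), -0.30 (exact p = 0.2) and -0.54 (exact p = 0.1), with a sign that turned with the unit or pseudocount in 3 of these differences.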

How the data were processed

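RNA-seq libraries of mouse back skin (control, IMQ and LYS, n = 3 each) were analysed from 1 deposited table. The authors deposited raw counts per gene and FPKM, and the submitters' processing notes list HISAT2, HTSeq 0.13.5 and GRCm38. Each deposited FPKM was the count divided by a fixed length and by the library total, and that length was the GENCODE M21 exon length for 98.4% of 29107 genes (within 1 base). Raw counts were tested with edgeR 4.0.16 in R 4.3.3 (TMM, filterByExpr, quasi-likelihood test, only the 6 libraries compared, Benjamini-Hochberg over all genes tested). A call needed an adjusted p under 0.05 together with a log2 fold change beyond 0.58 in either direction, as in the methods of the study. DESeq2 1.42.0, other scalings, no filter, 1 fit of all 9 libraries, a replicate block and leaving out each library were the alternatives. The code was tested on simulated data. Library order shares were taken over 14770 genes with a mean of at least 1 CPM.

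The members and the lists (paralogues, fatty acid synthesis, glycerolipid, sebocyte regulator, adipocyte, hair, epidermal, inflamed keratinocyte and muscle genes) were chosen with earlier results of these data known. Named from each list were, in each direction, the 3 calls of lowest adjusted p (with no call, the 3 of lowest p), any tested paralogue and the 3 nearest profiles per member. Fads2, Awat1, Scd2, Pnpla5, Pparg and Hsd3b6 are also given by library or value after their values were seen. One further gene that this rule names is not reported here.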

Additional observations from a re-analysis of the deposited data

How the results depend on the processing

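For IMQ against control, all 9 genes kept their direction and their call under every alternative, other than Soat1 at a log2 fold change over 1 (8 called). Krt79 kept its call only just with all 9 libraries in 1 fit (SE 0.833, edgeR adjusted p = 0.0495), against 0.0003 in the main fit (SE 0.266). For LYS against IMQ the count of called genes was 0 in the main edgeR fit. It was 1 (Soat1) with DESeq2, and also with edgeR without the filter on low counts or with all 9 libraries in 1 fit. Leaving out 1 library gave 0 to 2. Over all genes these counts were 0 in the main edgeR fit and 3392 with DESeq2. Other edgeR fits gave 2419 without the filter, 3040 with all 9 libraries, 1873 without IMQ library 1 and 4262 without LYS library 1. Krt79 has no adjusted p in DESeq2 for either LYS comparison. For LYS against control 5 genes were called, 6 without TMM scaling or with all 9 libraries, 7 without the filter, and 4 to 8 when 1 library was left out. Over all genes 4476 were called, with 2910 at a log2 fold change over 1 and, without control library 1, control library 2 or LYS library 2, 2579, 2947 and 2926. The cause of these changes was not tested. In LYS against IMQ, log2 fold changes over the libraries left out ran from -0.92 to 0.72 for Scd3, -0.28 to 1.59 for Far2, -0.62 to 0.47 for Awat2, -0.24 to 2.27 for Elovl3 and -0.63 to 1.93 for Krt79. That of Soat1 in LYS against control was -0.088 without TMM scaling and ran from -0.0054 to 0.12 with 1 library left out. The ratio of Scd3 to Scd1 in IMQ against control ran from -0.58 to 0.57 with 1 library left out. The ratio of Awat2 to Dgat2l6 was 1.02 with CPM and 1.04 with log2(FPKM + 0.1) in IMQ against control, and 0.23 and 0.19 in LYS against control. Dgat2l6 (0.0840 FPKM), Awat2 (0.562 FPKM) and Scd3 (0.656 FPKM) averaged under the pseudocount of 1 in IMQ libraries. The ratio of Far2 to Awat2 in LYS against control was 0.11 with log2(FPKM + 0.1).

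Libraries with the same number did not deviate together (correlations of deviations from the group means of -0.46 to 0.20), so the replicate numbers were not taken as pairs. With the replicate block 9, 0 and 6 of the genes were called in the 3 comparisons (8044, 0 and 3126 genes in all), Dgat2l6 was called in LYS against control (edgeR adjusted p = 0.0382), and the log2 fold change of Scd3 between LYS and IMQ was -0.031. Counts limit Dgat2l6 most, with 1 to 13 counts in IMQ libraries.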

Other observations

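The 14770 genes with a mean of at least 1 CPM over the 9 libraries were searched. Besides 5 of the sebaceous genes, 35 of them were more than 5 times higher in LYS library 1 than in either other LYS library. They were picked for that after their values were seen, so they carry no test. Of the 35, 28 had a control mean more than 2 times the IMQ mean, as had all 5 of those sebaceous genes. A gene near 0 in the IMQ and LYS libraries passes the filter of 1 CPM only through control. A high control mean was therefore partly built in by the search. The share of all genes with such a control mean was not computed. In edgeR 19.6% of 15976 genes tested were called lower in IMQ against control at a log2 fold change over 1. That is another measure over another set of genes, so it is no background for the 28. Fa2h gave 60.98 CPM in LYS library 1 against 8.8 and 11 CPM, with 123 to 165 CPM in control and 2.63 to 12.9 CPM in IMQ libraries. Sec14l4 gave 22.5 CPM against 2.13 and 1.66 CPM, and Ces4a, an esterase, 19.98 CPM against 1.90 and 0.890 CPM. The arylacetamide deacetylase relatives Aadacl4 (7.10 CPM against 0.863 and 1.01 CPM) and Aadacl4fm2 (7.24 CPM against 0.345 and 0.0593 CPM) were among them. S100a3, Gabrp, Cpa1 and Krt81, all among the 28, entered the 35 with 1 count in LYS library 1 against 0 in the others. Cpa1 had 16.0 CPM in control library 2 and at most 0.149 CPM in the other control libraries.

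The rest of the 35 did not have such a control mean. Of these, Sox9, a follicle stem cell factor, gave 29.7 CPM in LYS library 1 against 5.58 and 4.87 CPM, with 12.4 to 25.2 CPM in control and 9.24 to 12.8 CPM in IMQ libraries. Gpx2, a glutathione peroxidase, gave 8.89 CPM against 1.55 and 0.475 CPM, and Mill1 18.2 CPM against 2.13 and 2.61 CPM. The keratin Krt77, one of the 28, gave 20.2 CPM in LYS library 1 and 0.460 and 1.72 CPM in the others, far under its 405 to 900.2 CPM in control. Krt17, outside the 35, was also highest in that library (3250 CPM against 1530 and 632 CPM), with 1377 to 2857 CPM in the IMQ libraries. LYS library 1 was the highest LYS library for 41.1% of 14770 genes. On the list of sebocyte regulators and progenitor or duct markers, Plet1 and Lgr6 were also highest there. Lrig1, Gata6, Pparg and Mrap of that list were highest in LYS library 3. Krt17 rose in both cream groups against control (log2 fold change 2.01 in IMQ with edgeR adjusted p = 0.000978, and 1.86 in LYS with edgeR adjusted p = 0.0383).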
